A study of Mus musculus with 2 samples.

Results

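The subject is accessible chromatin at 9 genes for transcription factors that hold T cells in a naive or resting state: Bach2, Foxp1, Foxo1, Foxo3, Klf2, Tcf7, Lef1, Satb1 and Id3. Members were the accessible regions that overlapped the body of one of these genes or the 10 kb to either side of it, a stretch called the locus here. The rule for the members uses gene names and positions, and the genes were chosen with earlier results of these data known. The 9 loci held 190 of the 68903 regions in the list of replicate 1 and 242 of the 78262 regions in the list of replicate 2. After regions of the replicates that overlapped by at least 1 bp were joined, 180 regions were present in both lists, out of 63433 such regions over the autosomes and sex chromosomes. The material was mouse regulatory T cells, primary cells of the C57BL/6NJ strain, in 1 group of 2 ATAC-seq libraries, which are numbered 1 and 2 as biological replicates. ATAC-seq uses a transposase to cut and tag open DNA. Per the labels age is unknown and sex was not collected, the libraries carry the same donor identifier, and no treatment is named. The labels link a document on CD4 T cell differentiation that was not read, and the entries of the lists are named with 72 hours and with ASTARR and insert, words that the labels leave unexplained. Whether the lists come from plain ATAC-seq or from the inserts of a reporter library is not settled by the labels. If they are inserts, signal and -log10 q would reflect the makeup of that library as well as accessibility, and the word accessible below rests on the label ATAC-seq. With a single condition and 2 libraries no test between groups was possible, so values of both libraries are given side by side.

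Resting T cells keep out of the cell cycle and out of effector programmes through a set of DNA-binding proteins. FOXO1 is held in the cytoplasm when AKT phosphorylates it, and without that signal enters the nucleus, where it drives genes for survival and lymph node homing, Klf2 among them. TCF1, the product of Tcf7, and LEF1 are HMG-box partners of beta-catenin, and BACH2 is a leucine zipper repressor that binds sites like those of AP-1 and restrains effector genes. Regulatory T cells use several of these factors too, and FOXP3 is known to repress Satb1 in them.

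The defining genes of the labelled cell type were accessible. All 5 regulatory T cell markers (Foxp3, Il2ra, Ctla4, Ikzf2 and Tnfrsf18) had a region within 1 kb of a start site in both replicates, with 4 to 17 regions per locus found in both, as did the 3 T cell markers with a protein-coding model. Of the markers of other cell types, so did Pax5 and Ebf1 for B cells, with 6 and 19 regions per locus, Spi1 for myeloid cells, with 3, and Cd8b1 for cytotoxic T cells, with 2. Lyz2, Csf1r and Cd8a did not, and their loci held 1, 3 and 1 regions in both replicates. Of all 21911 protein-coding genes, 64.4% had a region within 1 kb of a start site in both replicates. Presence of such a region therefore does not by itself tell cell types apart. The part of other cells in the results below was not tested.

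The deposited values per region are a signal, whose scale no source used here gives, and -log10 q, which grows with the authors' statistical evidence for the region. Each is given as deposited and as a percentile among all entries of its own list. The sequences below are the windows of 100 bases to either side of the summit, the deposited point of highest signal in a region, at the intronic or flanking region that ranked highest by -log10 q in its locus. They are shown because evidence for openness away from the start sites of protein-coding genes peaked there in these 7 loci. Windows are on the summit of replicate 1, which lay 214 bp from that of replicate 2 at Foxp1 and 1030 bp at Satb1. Each is on the plus strand of mm10, read from the GRCm38 genome. Capitals mark matches to the 12 short motifs searched, on either strand, and coordinates stand beside the names.
Foxp1 intron 3 (chr6:99274655-99274855): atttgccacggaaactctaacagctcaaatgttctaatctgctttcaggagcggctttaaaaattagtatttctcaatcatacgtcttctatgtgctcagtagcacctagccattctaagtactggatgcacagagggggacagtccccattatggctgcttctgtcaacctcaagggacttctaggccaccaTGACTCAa
Bach2 intron 1 (chr4:32291400-32291600): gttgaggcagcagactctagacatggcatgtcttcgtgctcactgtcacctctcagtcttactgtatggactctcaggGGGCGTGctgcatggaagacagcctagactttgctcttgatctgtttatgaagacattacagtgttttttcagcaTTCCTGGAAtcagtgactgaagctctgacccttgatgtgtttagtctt
Lef1 intron 11 (chr3:131208576-131208776): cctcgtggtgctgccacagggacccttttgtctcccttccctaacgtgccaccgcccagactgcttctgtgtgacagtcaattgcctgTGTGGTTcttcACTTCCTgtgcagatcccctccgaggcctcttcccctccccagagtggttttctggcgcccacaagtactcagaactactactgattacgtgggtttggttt
Tcf7 intron 2 (chr11:52265686-52265886): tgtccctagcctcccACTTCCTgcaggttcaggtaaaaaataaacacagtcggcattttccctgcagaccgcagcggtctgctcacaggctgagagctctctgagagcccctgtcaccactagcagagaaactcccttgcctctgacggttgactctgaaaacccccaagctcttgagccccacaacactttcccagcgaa
Klf2 downstream (chr8:72331182-72331382): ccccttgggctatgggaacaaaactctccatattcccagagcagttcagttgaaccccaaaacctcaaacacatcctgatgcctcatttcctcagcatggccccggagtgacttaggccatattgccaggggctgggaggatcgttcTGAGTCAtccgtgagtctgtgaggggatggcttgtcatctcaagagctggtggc
Foxo3 intron 3 (chr10:42193056-42193256): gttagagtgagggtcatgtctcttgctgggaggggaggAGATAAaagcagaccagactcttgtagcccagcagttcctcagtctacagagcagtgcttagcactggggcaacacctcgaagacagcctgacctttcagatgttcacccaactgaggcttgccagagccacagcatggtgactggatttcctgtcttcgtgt
Satb1 intron 9 (chr17:51762604-51762804): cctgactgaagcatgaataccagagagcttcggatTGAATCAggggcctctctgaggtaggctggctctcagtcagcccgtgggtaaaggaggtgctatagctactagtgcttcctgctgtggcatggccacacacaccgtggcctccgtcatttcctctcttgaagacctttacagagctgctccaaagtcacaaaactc
The Foxp1, Klf2 and Satb1 windows each held a match to the AP-1 letters TGANTCA. The Lef1 window held a RUNX match (TGTGGTT) and an ETS match (AGGAAGT, here read from the minus strand), and the Tcf7 window held an ETS match alone. The Bach2 window held a KLF match (GGGCGTG) and a STAT match (TTCNNNGAA), and the Foxo3 window a GATA match (AGATAA). The windows of Foxo1 and Id3 chosen in the same way held none of the motifs and are not shown. A match is a description of letters and not evidence that a factor was bound.

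Each of the 9 loci held more regions in both replicates than the mean of protein-coding genes in its class of length, where 45.6% of all 21911 protein-coding genes did so. The classes were 20 groups of like size by length of the gene body. The ratio to the class mean was at least 2 for 6 of the 9 genes, against 12.3% of all genes, and its median was 2.09 over the 9 genes against 0.894 over all. Foxp1 stood at 7.82 times its class mean, Bach2 at 6.23, Lef1 at 3.16 and Tcf7 at 2.93. Klf2 and Id3 both stood at 2.09, Foxo1 at 1.98, Satb1 at 1.80 and Foxo3 at 1.44. With 50 kb in place of 10 kb to either side, Foxo3 stood at 0.972 times its class, and with only the 50000 strongest entries of each list by signal Foxo1 stood at 0.772, Tcf7 at 0.889 and Lef1 at 1.54. Regions found in both replicates made up 72.9% of the 247 joined regions of the 9 loci, against 76.9% of all 82444 joined regions. The 9 regions of replicate 1 alone and the 58 of replicate 2 alone were weak, with median percentiles by -log10 q of 7.63 and 9.99.

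**Figure D1:**
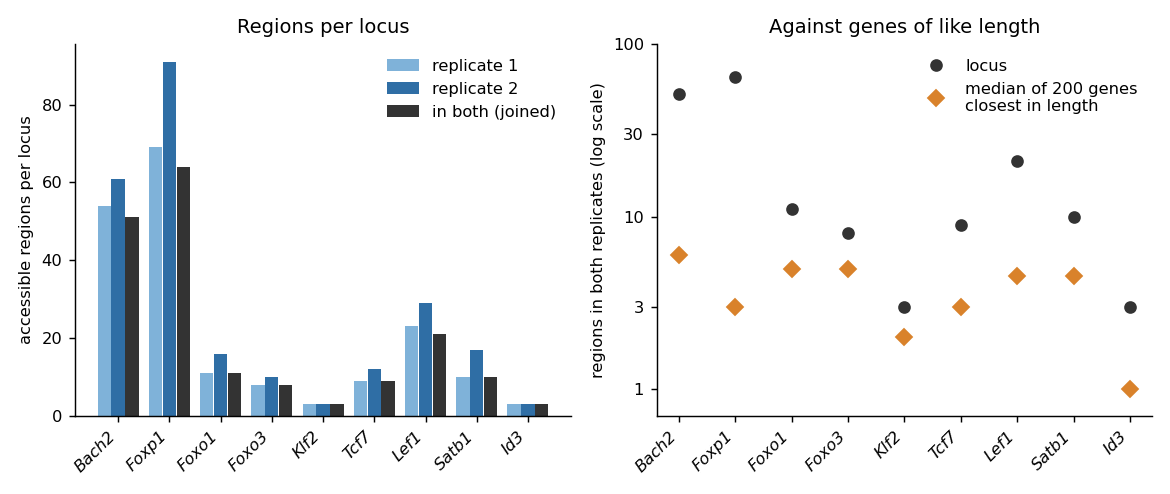
Left, accessible regions per locus in replicate 1, in replicate 2 and in both after joining. Right, regions in both replicates (log scale) at each locus and the median of the 200 protein-coding genes closest in length of body. Each of the 9 loci lies above that median, with the widest gap at Foxp1, 64 regions against 3.

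Foxp1 encodes a forkhead factor that keeps naive T cells quiescent, and its locus was the richest of the 9. It spans chr6:98925338-99522721 on the minus strand, a body of 597 kb. It held 69 regions in replicate 1, 91 in replicate 2 and 64 in both, which is 10.4 per 100 kb. None of the 200 protein-coding genes closest in length, from 436 to 817 kb, held as many. Over all protein-coding genes it ranked 3, after the models of Gm20388 (293 regions over 4435 kb) and Fgfr2 (107 regions over 2961 kb), and before Inpp4b (54), Pde4d (52) and Bach2 (51). Of the 64 regions, 58 lay in introns, 5 at start sites and 1 downstream.

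Along Foxp1, regions were denser in the 5′ part. Distances here are from the first base of the longest coding transcript. The body cut into 4 equal stretches, in the direction of transcription, held 20, 22, 9 and 12 regions. Runs of 3 or more regions with gaps of at most 5 kb, called clusters here, numbered 9 and took in 31 of the 64 regions. The median gap between neighbouring regions was 5.86 kb at Foxp1, 5.22 kb at Bach2 and 4.785 kb at Lef1, all close to that limit. Clusters were not counted in other genes, so whether they exceed what such a density of regions gives was not tested. Over the 6 long genes there were 23 clusters, a number that fell to 7 with gaps of at most 3 kb and to 11 among the 50000 strongest entries by -log10 q. Within intron 2 they lay at chr6:99426874-99433522 (3 regions, 88.0 to 93.7 kb from the start), chr6:99412260-99420935 (3 regions), chr6:99397894-99406717 (4 regions), chr6:99374432-99388995 (4 regions) and chr6:99336187-99345310 (3 regions, 176 to 184 kb). The cluster at chr6:99301781-99310019, 211 to 219 kb from the start, spanned the border of introns 2 and 3. The largest by number, with 5 regions at chr6:99257726-99266674, took in the start of the transcript annotated as principal, 255 to 263 kb into the gene. The remaining clusters lay in intron 4 at chr6:99232225-99242494 (3 regions) and in intron 6 at chr6:99025846-99029099 (3 regions within 3.25 kb, 2 of them at internal start sites). The longest stretch without a region in both replicates was 37.3 kb at chr6:99057739-99094997, where 6 weaker regions were listed in a single replicate.

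The highest region of Foxp1 by -log10 q was the intron 3 region shown above, at chr6:99274080-99275850, 246 kb into the gene, ahead of the principal start. Its -log10 q was 276 in replicate 1 and 405 in replicate 2, at the 98.0 and 98.2 percentile, and its signal was 10.04 and 10.2. By signal the highest was an intron 1 region at chr6:99452247-99453158, 68.2 kb from the start, with 15.2 and 15.4, at the 95.7 and 96.3 percentile. A region in intron 2 at chr6:99350336-99351359 came next by signal, with 13.9 and 14.9. In intron 6, a region at chr6:99056785-99057738 had a -log10 q of 256 and 360 and a signal of 13.9 and 12.9. The start site regions of Foxp1 were weaker than these. The region at the far 5′ start, chr6:99520580-99523627, had a -log10 q of 32.1 and 48.8, and that at the principal start 29.9 and 28.8. The highest start site region was the internal one at chr6:99027911-99029099, 492 kb into the gene, where 5 coding transcripts begin, with 79.2 and 123.

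Bach2 lies at chr4:32238804-32586108 on the plus strand and has a body of 347 kb. It held 54 regions in replicate 1, 61 in replicate 2 and 51 in both, or 13.9 per 100 kb, a higher density than Foxp1. None of the 200 genes closest in length held as many, and it ranked 6 of all protein-coding genes, ahead of Gm37240 and Rora (49 regions each) and Gm20696 (44). Among the 566 protein-coding genes with bodies of at least 300 kb, the median was 3 regions, and 6 genes held 51 or more. Introns held 46 of the 51 regions.

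Bach2 held 7 clusters, with 26 of the 51 regions. One lay in intron 1 at chr4:32257732-32272950 (4 regions, 19.5 to 33.8 kb from the start). Intron 2 held 4 clusters: chr4:32319366-32336999 (4 regions), chr4:32343335-32352181 (3 regions), chr4:32358321-32365698 (3 regions) and chr4:32387627-32395091 (4 regions), which together spread from 81.0 to 156 kb. Intron 3 held one at chr4:32423797-32438143 (4 regions, 186 to 199 kb). The last, at chr4:32560330-32572576 (4 regions, 322 to 333 kb), crossed introns 4 and 5, and 2 of its regions lay within 1 kb of a start of the noncoding gene Bach2os. The longest stretch with no region in both replicates was 18.6 kb, at chr4:32483397-32501946.

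The highest region of all 180 by -log10 q was the Bach2 intron 1 region shown above, chr4:32290900-32292636, 52.7 kb from the start. It had a -log10 q of 328 in replicate 1 and 533 in replicate 2, at the 99.0 and 99.5 percentile, a signal of 9.84 and 10.2, and summits 6 bp apart between the replicates. It stood alone, outside every cluster. By signal the highest at Bach2 was a region 3′ of the gene at chr4:32587622-32588876, with 13.0 and 12.8. The start site region at chr4:32238231-32240576 had a -log10 q of 164 and 254, at the 92.0 and 93.7 percentile. Outside start sites, 4 regions of Bach2 ranked above it by that measure and 8 by signal.

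**Figure D2:**
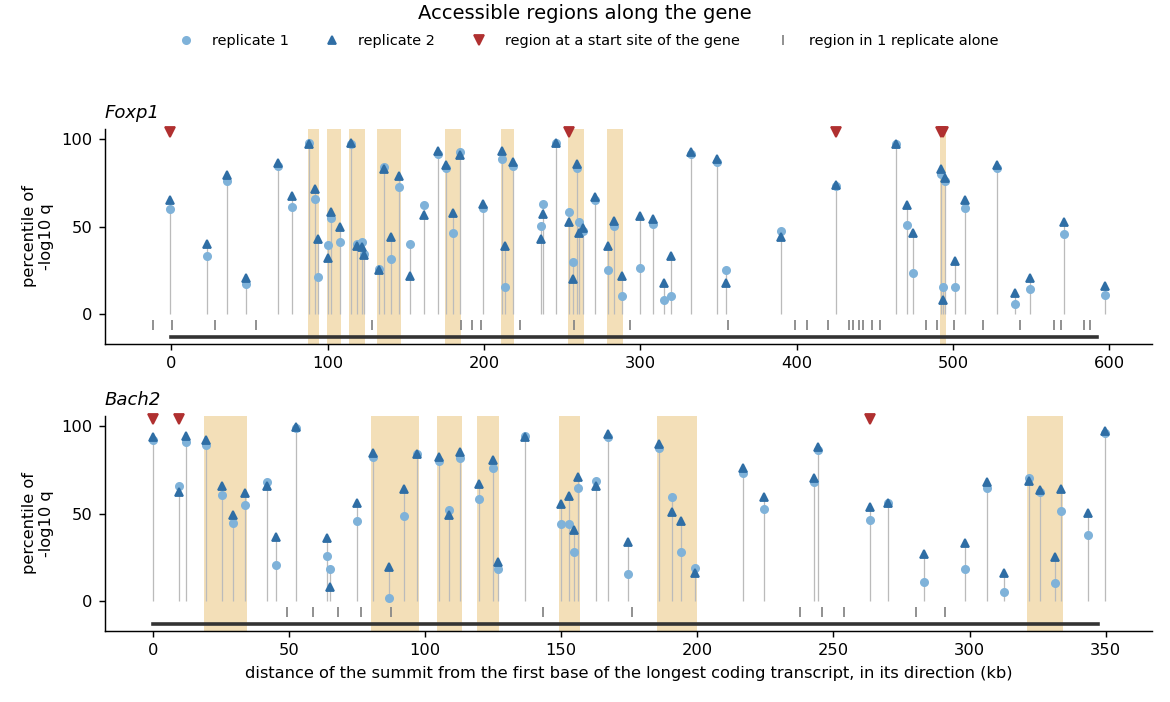
Regions in both replicates along Foxp1 and Bach2, placed by the distance of the summit from the first base of the longest coding transcript (kb) and by percentile of -log10 q in the list of each replicate. Shaded bands are the 9 and 7 clusters, red marks are regions at a start site, grey ticks are regions of a single replicate and the dark bar is the transcript; the highest point of each gene lies in an intron.

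Lef1 and Tcf7 encode the related HMG-box factors LEF1 and TCF1. Lef1 (chr3:131110471-131224356, plus strand, 114 kb) held 23 regions in replicate 1, 29 in replicate 2 and 21 in both, or 15.7 per 100 kb, and 199 of the 200 genes closest in length held fewer. Among the 6 genes with bodies of at least 50 kb, Lef1 had the smallest median gap between neighbouring regions, 4.785 kb. Its 4 clusters took in 14 of the 21 regions, the largest share among these 6 genes. They lay around the start at chr3:131105872-131118400 (4 regions), and further in at chr3:131133935-131140009 (3 regions), chr3:131155947-131163610 (3 regions) and chr3:131176910-131188830 (4 regions, 66.6 to 77.8 kb). The highest region of Lef1 by both measures was outside these, in intron 11 near the 3′ end, at chr3:131207900-131209191. Its -log10 q was 291 and 442, at the 98.3 and 98.7 percentile, and its signal was 13.2 in both replicates. The start site region at chr3:131110953-131113543 had 125 and 216, with its summit 1.88 kb inside the gene. Of the 21 regions, 7 were left among the 50000 strongest entries by signal.

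Tcf7 (chr11:52252371-52283014, minus strand, 30.6 kb) had the highest density of the 9 loci, 17.8 regions per 100 kb. It held 9 regions in replicate 1, 12 in replicate 2 and 9 in both, and none of the 200 genes closest in length held as many. The strongest was the intron 2 region shown above, chr11:52265342-52266579, 16.8 kb from the start, with a -log10 q of 100 and 165 and a signal of 5.98 and 6.29. A second intron 2 region at chr11:52268159-52269037 followed, with 51.9 and 92.2. The start site region, chr11:52280816-52283626, was the weakest of the 9 genes' highest start site regions by -log10 q, with 35.5 and 30.6, at the 62.7 and 54.3 percentile. By signal it stood at the 29.4 and 18.6 percentile, the lowest in replicate 2 but above that of Foxo1, at 26.4, in replicate 1. Its summits lay 2014 bp apart between the replicates, the widest such gap among the 180 regions. With only the 50000 strongest entries by signal, 2 of the 9 Tcf7 regions were left.

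Foxo1 and Foxo3 encode forkhead factors under AKT control. Foxo1 (chr3:52268336-52353221, plus strand, 84.9 kb) held 11 regions in replicate 1, 16 in replicate 2 and 11 in both, and 190 of the 200 genes closest in length held fewer. Its highest regions by -log10 q were neighbours at the 5′ end: the start site region at chr3:52267663-52269368, with 73.8 and 118, and an intron 1 region at chr3:52269871-52271994, 3.28 kb inside, with 100 and 137. Both overlapped the surroundings of a start of the noncoding gene Gm20402. By signal these were in the lower part of the lists, at the 26.4 and 34.5 percentile for the start site, and 3 of the 11 regions were left among the 50000 strongest entries by signal. The rest of intron 1 held scattered regions, of which the one at chr3:52321972-52323282, 54.6 kb from the start, was the strongest, with a -log10 q of 36.1 and 50.3.

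Foxo3 (chr10:42181841-42276755, minus strand, 94.9 kb) held 8 regions in replicate 1, 10 in replicate 2 and 8 in both, the lowest density of the 9, at 6.96 per 100 kb. Of the 200 genes closest in length, 137 held fewer. A wide start site region of 3542 bp, chr10:42274919-42278460, had a -log10 q of 169 and 277, at the 92.5 and 94.7 percentile, and formed a cluster of 3 with regions 5.9 and 7.33 kb inside the gene. The intron 3 region shown above, chr10:42192900-42193794, had 73.6 and 116, with a signal of 11.1 and 11.5. Between them, 40.2 kb of intron 2 at chr10:42221354-42261504 held no region found in both replicates and 1 listed in a single replicate, the longest such stretch in the 6 long genes.

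Satb1 encodes a chromatin organiser of thymocytes. It lies at chr17:51736187-51833290 on the minus strand (97.1 kb) and held 10 regions in replicate 1, 17 in replicate 2 and 10 in both, so that 6 of its 16 joined regions rested on replicate 2 alone. Start sites took 3 of the 10 regions. They lay at chr17:51831435-51834346, with a -log10 q of 93.6 and 123, at chr17:51825842-51827108, with 36.3 and 57.8, and at chr17:51812411-51814423, with 55.4 and 65.8. Coding transcripts begin at each of the 3. The other strong region was the one in intron 9 shown above, chr17:51762442-51764056, with 88.8 and 113, which also lay within 1 kb of a start of the noncoding gene C230085N15Rik. Towards the 3′ end a stretch of 29.5 kb, chr17:51732927-51762441, held no region in either list.

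**Figure D3:**
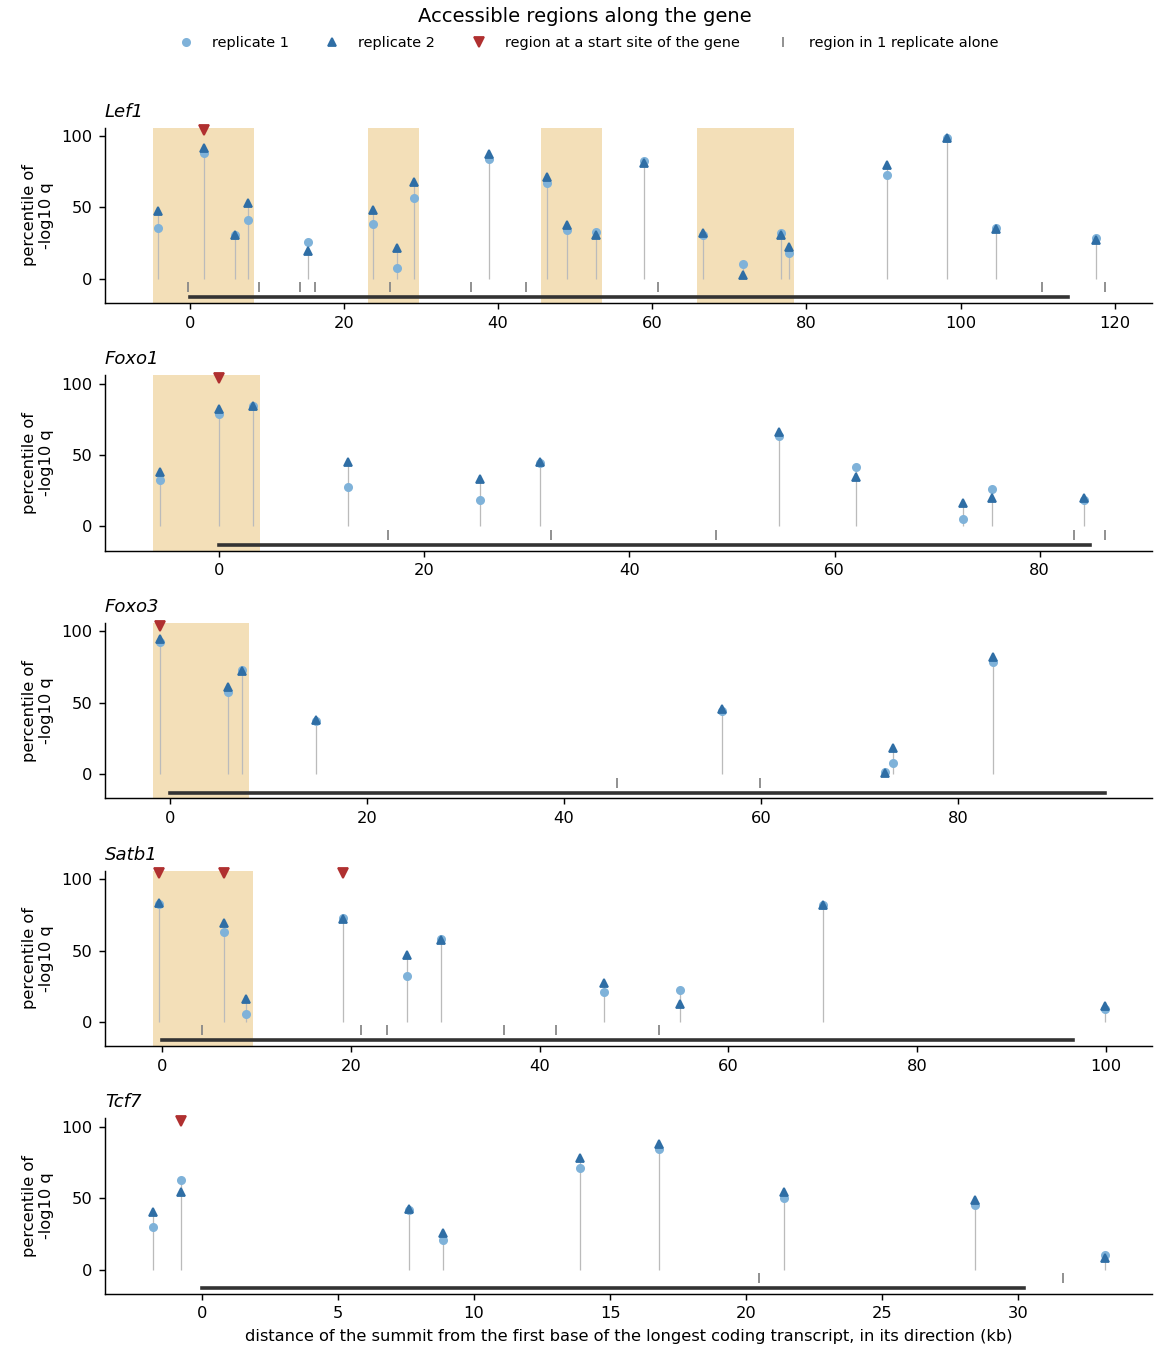
Regions in both replicates along Lef1, Foxo1, Foxo3, Satb1 and Tcf7, drawn as distance from the first base of the longest coding transcript (kb) against percentile of -log10 q in each list. Bands mark clusters (none was sought in Tcf7, whose body is under 50 kb), red marks are start site regions, and grey ticks are regions of 1 replicate; Foxo3 shows the long bare stretch of intron 2 and Lef1 the high region near its 3′ end.

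Klf2 and Id3 are short genes. Klf2 encodes a zinc finger factor that drives homing receptor genes such as S1pr1, and ID3 binds E proteins and keeps them off DNA. Each locus held 3 regions, all found in both replicates. At Klf2 (chr8:72319033-72321656, plus strand, 2.62 kb) the start site region, chr8:72318645-72320380, had a -log10 q of 194 and 247 and a signal of 10.5 and 9.80. The downstream region shown above, chr8:72330522-72331794, 12.2 kb from the start, had 183 and 233, and stood higher by signal, with 14.2 and 13.2. The region between them, chr8:72322244-72323161, was weak by signal, with 2.98 and 2.77. Its -log10 q was 16.4 and 19.2, at the 41.8 and 42.6 percentile. At Id3 (chr4:136143497-136145755, plus strand, 2.26 kb) the start site region, chr4:136143473-136145221, had a -log10 q of 165 and 245. A region downstream at chr4:136147452-136148147 had 115 and 132, and an upstream region at chr4:136134508-136135691 had 15.3 and 12.8. The gene bodies alone, without the 10 kb to either side, held 1 region each. Of the 200 genes closest in length, 146 held fewer regions than Klf2 and 147 held fewer than Id3.

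All 9 genes had a region within 1 kb of a start site in both replicates, against 64.4% of protein-coding genes. Together the genes have 58 annotated starts, of which 41 had such a region. The share over all annotated starts was not counted, so whether 41 is many or few cannot be told. The 17 start site regions of the 9 genes had lower medians than start site regions at large. By -log10 q the median percentiles in the lists of replicates 1 and 2 were 73.2 and 73.9, where all 16329 start site regions found in both had 81.4 and 83.6. By signal they were 45.8 and 49.98, where all had 74.0 and 76.5. Of the 17 regions, 5 were at Foxp1 and 3 each at Bach2 and Satb1, genes with 22, 7 and 12 annotated starts, so these genes weigh most in the medians. The Bach2 regions 9.71 and 263 kb from the start lay at starts of noncoding transcripts alone. For the start site region of each gene picked as highest by -log10 q, the median over genes of the mean percentile was 89.8 by that same measure and 56.2 by signal. No matching median over all genes is given here. A region away from the start sites ranked above the highest start site region in 5 of the 9 genes by -log10 q (Bach2, Foxp1, Foxo1, Tcf7 and Lef1) and in 7 by signal, those 5 with Foxo3 and Klf2. Of the 10453 protein-coding genes with both kinds of region, 25% did so by -log10 q and 35.5% by signal. The 9 genes had a median of 8 distal regions and those genes a median of 2, a difference for which these counts were not adjusted. Among the 50000 strongest entries by signal, the start sites of Foxo1 and Tcf7 no longer had a region in both replicates. That left 7 of the 9 genes with one, against 59.4% of all protein-coding genes under the same cut.

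**Figure D4:**
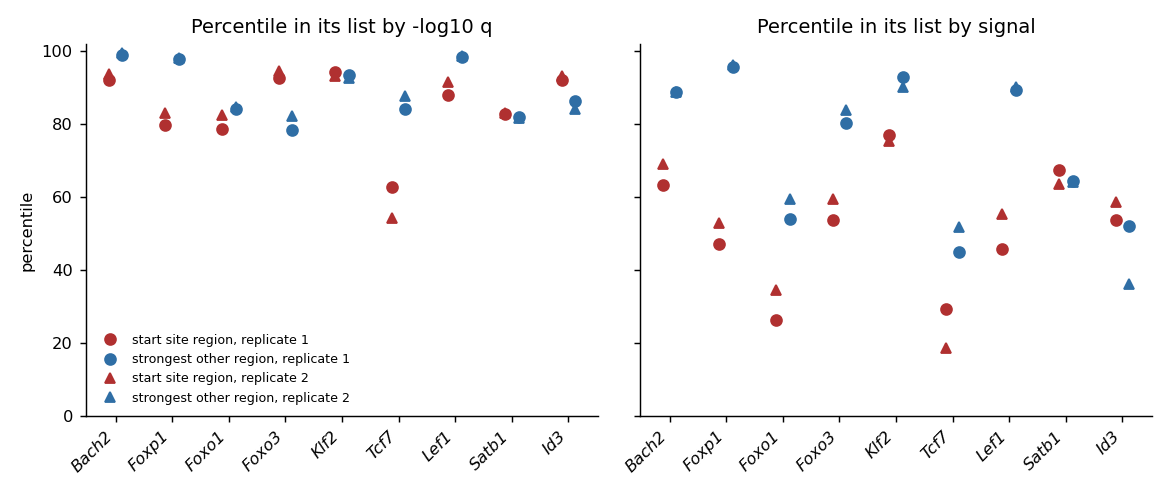
Percentile of the highest start site region of each gene (red, chosen by -log10 q) and of its highest region outside start sites (blue, chosen by the measure of each panel), by -log10 q (left) and by signal (right), for replicate 1 (circles) and replicate 2 (triangles). Tcf7 has the lowest start site points by -log10 q, at 62.7 and 54.3.

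The 2 measures gave different pictures of the regions away from start sites. Of the 180 regions, 163 (90.6%) were distal, meaning that they did not reach within 1 kb of a start of any protein-coding gene, against 74.3% of all regions in both replicates. By -log10 q, 14 of the 163 (8.59%) were among the top 10% of entries in both lists, against 3.43% of all 47104 distal regions. By signal 3 were (1.84%), against 4.99%. With start site regions included, 18 of the 180 regions (10%) were in the top 10% by -log10 q, against 10.5% of all regions in both replicates. Medians followed the same split. By -log10 q the 163 regions had a median percentile of 46.2 in replicate 1 and 52.6 in replicate 2, near the 46.8 and 52.9 of all distal regions, whereas by signal it was 32.3 and 36.3 against 47.8 and 53.8. Of these 18, 7 were at Foxp1 and 6 at Bach2, with 2 at Klf2 and 1 each at Foxo3, Lef1 and Id3. The 180 regions had a median width of 880.5 bp, against 791 bp over all regions in both replicates, and the median gap between the summits of the replicates was 24.5 bp, against 19 bp.

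Motif letters in the 163 distal windows of 201 bases were mostly about as common as in all 47104 distal windows, and GC content was alike, with medians of 47.3% and 47.8%. AP-1 letters were the most common, in 36 windows (22.1%), against 22.7% of all. TCF/LEF letters (CTTTGAT or CTTTGAA) were in 19 windows (11.7%), against 10.5%, and 11 of these 19 were at Foxp1. RUNX letters were in 17 (10.4%), against 10.6%. Forkhead letters (TGTTTAC) were in 6 (3.68%), against 2.36%, and KLF letters (GGGTGTG or GGGCGTG) in 15 (9.20%), against 7.57%, of which 9 were at Bach2. With 50 bases to either side the shares of 3 of these motifs changed sides: TCF/LEF letters were in 4.91% against 5.59%, RUNX letters in 7.98% against 6.08% and AP-1 letters in 17.2% against 15.6%. AP-1 letters also did so on the summits of replicate 2, in 23.9% against 23.3%. CTCF letters were the lowest relative to all windows, in 2 windows (1.23%), against 2765 (5.87%) of all distal windows. With windows on the summits of replicate 2 they were in 3 (1.84%), against 5.89%, and within 50 bases of the replicate 1 summit in none, against 4.85%. The other motifs were ETS letters, in 10.4% against 12.7%, the E-box CAGCTG, in 11.0% against 13.3%, GATA, in 8.59% against 9.60%, STAT, in 14.1% against 16.0%, NF-kB, in 0.613% against 1.30%, and BACH letters, which contain those of AP-1, in 0.613% against 1.07%. Of these, the E-box and STAT changed sides on the summits of replicate 2, in 13.5% against 13.1% and 16.6% against 16.1%, and BACH letters within 50 bases, in 0.613% against 0.599%. No test was run on these shares, since the windows share 9 loci.

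**Figure D5:**
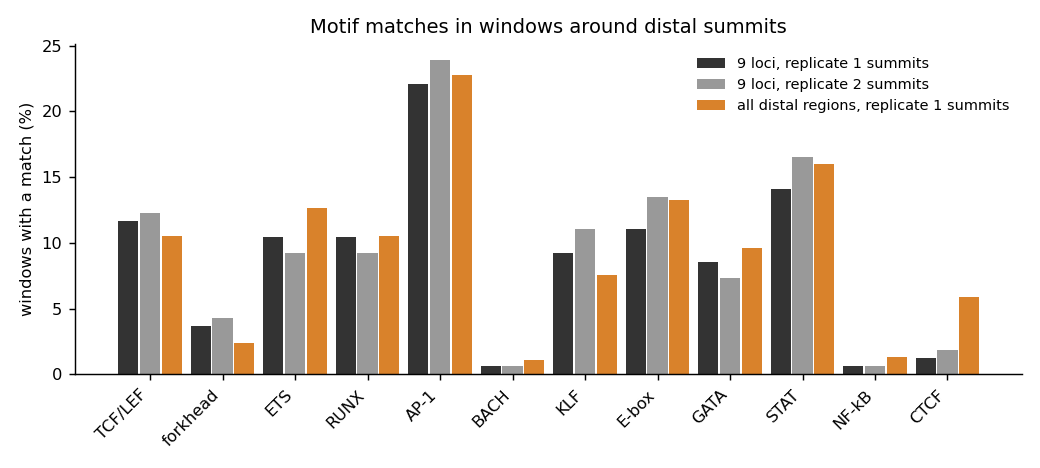
Share of windows, 100 bases to either side of a distal summit, with at least 1 match to each motif on either strand. Black and grey bars are the 163 windows of the 9 loci on the summits of replicate 1 and replicate 2, and orange bars are all 47104 distal windows; CTCF letters are in 1.23% and 1.84% of the former against 5.87%.

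The paralogues of the 9 genes were compared by the same counts. All 18 had a start site region in both replicates, against 64.4% of all protein-coding genes. Of the 18, 12 stood above the mean of their length class, against 45.6% of all. Their median ratio was 1.54, against 2.09 for the 9 genes. Within the forkhead family, Foxp2, with a body of 541 kb, held 2 regions in both replicates (0.244 times its class), where Foxp1, at 597 kb, held 64. Foxp4 held 7 and Foxp3 held 8 (1.85 and 3.02 times). Foxo4 held 4 (2.65 times), a higher ratio than Foxo1 (1.98) or Foxo3 (1.44), and Foxo6 held 3 (1.16 times). Bach1 held 3 (0.975 times), where Bach2 held 51. Tcf7l1 and Tcf7l2, relatives of Tcf7 and Lef1 with bodies of 163 and 192 kb, held 10 and 13 (1.50 and 1.59 times). Id1 and Id2 each held 3, as did Id3, but stood at 3.87 and 1.87 times their class against 2.09 for Id3, and Id4 held 1 (0.652 times). Among the KLF genes, Klf13 held 6 (1.58 times), Klf6 held 5 (2.71 times) and Klf1 held 4 (2.50 times), where Klf2 held 3 (2.09 times). Klf3 held 4 (1.43 times), Klf5 held 2 (0.828 times) and Klf4 held 1 (0.662 times).

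Other genes of the naive and resting state were also open. The list used shares Klf3 and Klf6 with the paralogues, so the 2 sets are not separate. All 18 genes on it had a start site region in both replicates, against 64.4% of all protein-coding genes. Of the 18, 15 stood above the mean of their length class, against 45.6% of all, with a median ratio of 2.62. The homing genes that FOXO1 and KLF2 are known to drive held 4 regions at Ccr7 and 2 at S1pr1 (1.87 and 1.30 times the class mean), and the interleukin-7 receptor gene Il7r held 7. Ets1 held 27 regions, Runx1 26, Bcl2 25 and Ikzf1 20. The genes below their class were the antiproliferative Tob1 (1 region, 0.624 times), Foxj1 (1 region, 0.652 times) and Tsc1 (2 regions, 0.528 times), a brake on mTOR. All 6 listed factors of effector programmes had a start site region in both replicates too, so that measure did not set the naive list apart from them. Of these 6, 5 stood above their class: Irf4 with 8 regions (3.10 times), Tbx21 with 5 (2.07 times), Batf with 5 (1.89 times), Prdm1, a gene that BACH2 is known to repress, with 10 (1.80 times) and Zeb2 with 10 (1.50 times), whereas Maf held 1 (0.377 times).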

How the data were processed

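ATAC-seq region lists of 2 libraries of mouse regulatory T cells were used. Per the deposited text files the authors made each list, in narrowPeak form on mm10, from the alignments of its own library and not from pooled reads. No source used here names the aligner or the peak caller, or says whether reads were shifted for the transposase. The deposited signal of each region has no stated scale. The deposited -log10 p was not used, and the deposited -log10 q starts at 1.00 in both lists. The deposited score follows the -log10 q up to a ceiling and was not used. The lists carry no read numbers, so depth is unknown.

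Gene models were GENCODE M21 (21911 protein-coding symbols) and bases came from GRCm38.p6, the mm10 assembly. All entries lay within its chromosomes. Entries outside the autosomes, X and Y (71 and 84) were left out. Regions of the replicates overlapping by at least 1 bp were joined, and each took, per replicate, the values of its entry with the highest -log10 q. Start site regions reached within 1 kb of any annotated start of the gene. Clusters were sought in genes with bodies of at least 50 kb. Intron numbers follow the longest coding transcript. Named were the 9 genes, the listed paralogues, naive and effector genes, the neighbours in rank of Foxp1 and Bach2, and within loci the start site regions, highest regions and clusters. Further regions were picked for mention with their values known. The members and lists were chosen with earlier results of these data known. Some genes of the lists enter the counts but are not reported here by name. Scripts (Python 3.11.15) were checked on simulated data. Alternatives are in the closing section.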

Additional observations from a re-analysis of the deposited data

How the results depend on the processing

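No test was run, so the alternatives bear on counts and positions alone. The 180 regions in both replicates over the 9 loci became 90 with the 50000 strongest entries of each list by signal. What share of all such regions that cut leaves was not counted, here or for Lef1, Tcf7 and Foxo1 above. The ratio to the length class applies the cut to all genes. It rose at Id3, from 2.09 to 2.87, and fell at every other locus, from 7.82 to 6.13 at Foxp1 and from 6.23 to 4.90 at Bach2. The 23 clusters of the long genes became 7 with gaps of at most 3 kb and 11 with only the 50000 strongest entries of each list by -log10 q. The number of the 12 motifs with a higher share at the 9 loci than in all distal windows went from 3 to 5 with 50 bases to either side, and to 6 with windows on the replicate 2 summits. The median percentile of the highest start site regions went from 56.2 by signal to 89.8 by -log10 q. Without replicate 1 or without replicate 2, the loci held 242 and 190 entries, the long genes 32 and 25 clusters, and all 9 loci stood above their length class. Satb1 went from 10 regions to 17 in replicate 2 alone. No paired analysis was possible because the labels give a single group.

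Read depth is unknown for both lists, so a region absent from a list was not shown to be closed. The libraries carry the same donor identifier, and nothing in the labels says whether they came from separate cultures or animals.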
